A study of Mus musculus with 8 samples.

Results

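The genes described here are those of the mitochondrial ribosomal proteins, taken as every row whose gene symbol begins with Mrpl or Mrps followed by a number. They made up 77 of the 24849 genes listed for each sample, 48 with a large subunit symbol (Mrpl) and 29 with a small subunit symbol (Mrps). The members were chosen by symbol alone, with no measured value in the rule. The family itself, and the separate look at its genes on chromosomes 6 and 11, were selected on earlier results for FPKM between the genotypes and days of these same samples. Counts and medians over the family are therefore descriptions beside the same figures for all genes, and the p-values of single members come from the fit over all genes and are not independent support for the choice.

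Mitochondria keep their own ribosome, which translates the small set of respiratory chain and ATP synthase subunits that mitochondrial DNA still encodes. The proteins of this ribosome are all nuclear gene products, made in the cytoplasm and imported to join ribosomal RNAs transcribed inside the organelle. Part of them descend from bacterial ribosomal proteins and part were added in mitochondria. Embryonic stem cells use both glycolysis and mitochondrial respiration, and the balance between them depends on the culture and the stage of differentiation.

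RNA was sequenced from MPI-II mouse embryonic stem cells (mESCs) of 129S2/SvPas origin, either wild type (WT) or Pcgf5-/- (KO in the plots), at day 0 and at day 6 of neural differentiation. At day 0 the cells grew on feeder cells with serum, LIF and the 2i inhibitors, and N2B27 medium without these was used for differentiation. Both genotypes were cultured and differentiated alike, and each of the 4 conditions had 2 samples of polyA-selected RNA, called replicates 1 and 2. The Pcgf5 gene, which encodes a Polycomb repressive complex 1 subunit, was disrupted by TALENs at its second exon, and single colonies were picked after selection with puromycin and G418. The labels do not say whether the 2 Pcgf5-/- samples of a day came from different colonies. P-values therefore measure the spread between these samples, and any change that a colony acquired cannot be told apart from the loss of Pcgf5.

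Values are FPKM, counts of sequenced fragments scaled by transcript length and by the number of fragments mapped. Changes are differences of log2(FPKM + 1), a scale on which the change of weakly expressed genes comes out smaller than the ratio of FPKM values. A gene was called changed when the adjusted p-value of limma, fitted to 13214 expressed genes in all 8 samples, was under 0.05. All 77 mitochondrial ribosomal protein genes were among the genes tested, none was listed at 0 in any sample, and each had a single row and an unproblematic quantification status.

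The targeted gene went with the labels. Pcgf5 measured 5.18 and 3.63 FPKM in the WT mESCs and 1.28 and 1.84 FPKM in the Pcgf5-/- mESCs. The samples lay apart there without passing the threshold (log2 -1.07 ± 0.28 SE, limma adjusted p = 0.105). After 6 days of differentiation Pcgf5 stood at 9.16 and 5.06 FPKM in WT and 0.669 and 0.457 FPKM in Pcgf5-/- cells (log2 -2.33 ± 0.28 SE, limma adjusted p = 0.00421). The summed FPKM of 10 pluripotency markers ranged from 1600.6 to 1676.5 over the 4 day 0 samples, and at day 6 was 199.7 and 321 in WT and 759.6 and 798 in Pcgf5-/- cells, while 8 neural progenitor markers summed to 354 and 357 in WT and to 136 and 149 in Pcgf5-/- cells. The day 6 populations of the genotypes thus differed in marker content, and fewer cells of a type cannot be told apart from less RNA per cell in such bulk samples. Feeder fibroblast markers summed to 256 and 173 FPKM in the WT mESCs and to 162 and 558 FPKM in the Pcgf5-/- mESCs, so that replicate 2 of the latter stood apart, and to 19.5 to 45.7 FPKM in the differentiated samples. The part of these cells in the day 0 comparison was not tested beyond leaving out that library. The files give no read counts, but the spacing of the lowest FPKM values put the depth of the samples between 0.99 and 1.29 times that of WT day 0 replicate 1.

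The family was expressed in every sample, mostly above the level of the median gene. The mean FPKM of a member over the 8 samples ranged from 7.61 to 164 with a median of 42.04, against a median of 9.35 over all tested genes, and 44.5% of the tested genes lay below the lowest member. The highest was Mrpl42, a mitochondria-specific large subunit protein, followed by Mrpl52 (121 FPKM), Mrpl12 (105 FPKM), Mrpl22 (98.4 FPKM) and the small subunit gene Mrps21 (93.9 FPKM). The order of the high members depends on the estimate used, since the FPKM of a member was 0.996 to 1.75 times the midpoint of the confidence bounds given by Cufflinks. By that midpoint Mrpl42 was again the highest, followed by Mrpl12, Mrpl22, Mrps5 and Mrpl52. The lowest, which were the same 5 genes by both estimates, were Mrpl57 (7.61 FPKM), Mrps14 (8.91 FPKM), Mrpl41 (10.3 FPKM), Mrpl17 (11.7 FPKM) and Mrpl19 (13.6 FPKM). Proteins that occur together in the ribosome were thus measured at transcript levels that differed by more than the spread between replicates, with Mrpl42 at 169.9 and 193 FPKM and Mrpl57 at 6.74 and 6.17 FPKM in the WT samples of day 0.

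The promoters of the family carried a few short sequence motifs of transcription factors with general roles at housekeeping promoters. RefSeq promoter sequences (build GRCm38.p6, 250 bases before to 50 bases after the start site) could be matched to 68 members, which have 74 such windows. The palindromic 10-base NRF1 motif (the capitals of the first 3 sequences shown), bound by a regulator of nuclear genes for mitochondrial proteins, was found in 3 of the 74 windows (4.05%), compared with 2% of 12650 windows of the other tested genes and 0.971% of all 32851 windows. The YY1 motif AAGATGGCG was found in 8 windows (10.8%), compared with 2.84% and 1.4%. The ETS motif CCGGAAGT occurred in 16.2% of the members' windows, against 7.53% and 3.89%, and the hexamer TGCGCA, which can overlap the NRF1 motif, in 28.4%, against 13.4% and 7.76%. Shares were closer for the E-box CACGTG (9.46% against 9.93% of the other tested genes), for CCAAT (40.5% against 37.9%) and for TATAAA (6.76% against 7.14%). All motifs were searched as exact letters on both strands, and a match describes these letters and not a bound site.

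The NRF1 matches and 4 of the YY1 matches are shown with their flanks on the gene's strand, because YY1 had the highest share in the members relative to all promoters and NRF1 regulates nuclear genes of mitochondrial proteins. For NRF1 the share rests on 3 windows, and relative to the other tested genes it was no higher than that of ETS or TGCGCA. The motif is in capitals, and the YY1 examples are the matches in Mrpl35 and Mrps24, which differed between the genotypes, and in Mrpl42 and Mrps18a, which changed over the days.
Mrpl32, chr13:14613105-14613134, minus strand: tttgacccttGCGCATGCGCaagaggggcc
Mrpl39, chr16:84735350-84735379, minus strand: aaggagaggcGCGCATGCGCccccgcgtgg
Mrpl9, chr3:94443298-94443327, plus strand: aggcgcagctGCGCATGCGCggggtccttc
Mrpl35, chr6:71823743-71823771, minus strand: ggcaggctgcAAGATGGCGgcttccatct
Mrps24, chr11:5707652-5707675, minus strand: gcgccggcccAAGATGGCGtggtc
Mrpl42, chr10:95501904-95501932, minus strand: agattgaagcAAGATGGCGagcgcgcggt
Mrps18a, chr17:46111005-46111033, plus strand: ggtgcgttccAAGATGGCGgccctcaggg
With the start site as position 1, the YY1 match began at position 24 in Mrpl35, 37 in Mrps24, 28 in Mrpl42 and 12 in Mrps18a. These lay inside the transcript on the gene's strand, as did those not shown at 27 in Mrpl37 and 15 in Mrps27. The matches of Mrpl36, which also changed over the days, and of Mrps11 lay upstream on the other strand, at -31 and -108. The NRF1 matches lay upstream, from positions -87 in Mrpl32, -125 in Mrpl39 and -28 in Mrpl9.

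Before the genotypes are compared, 2 libraries need mention. In the WT samples of day 0, replicate 2 lay above replicate 1 for 65 of the 77 members, with a median difference of 0.16 in log2, whereas the median over all tested genes was 0.02. In the Pcgf5-/- samples of day 6, replicate 2 lay above replicate 1 for 71 members, with a median of 0.24 against 0.03 for all genes. Replicates lay closer in the Pcgf5-/- samples of day 0 (median -0.03, replicate 2 higher for 35 members) and in the WT samples of day 6 (0.06, 48 members). The widest gap between replicates was that of Mrps6, at 15.8 and 26.4 FPKM in Pcgf5-/- cells of day 6.

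The summed FPKM of the 77 genes was 3176 and 3711 in WT and 3983 and 3912 in Pcgf5-/- mESCs at day 0. At day 6 the sums were 3111 and 3414 in WT and 3709 and 4379 in Pcgf5-/- cells. Both Pcgf5-/- samples thus lay above both WT samples on each day. The 17 genes on chromosomes 6 and 11 gave 17.3% and 17.4% of the sum in WT against 22.9% and 23.3% in Pcgf5-/- cells at day 0, and 19.5% and 18.8% against 23.7% in both samples at day 6. Their own sums were 549 and 645 FPKM in WT against 912 and 910.0 FPKM in Pcgf5-/- mESCs, and 607 and 641 FPKM against 880.1 and 1037 FPKM at day 6. For the 60 genes on the other chromosomes the sums overlapped at day 0, at 2626 and 3065 FPKM in WT and 3071 and 3002 FPKM in Pcgf5-/- cells. They lay apart at day 6, at 2504 and 2773 FPKM against 2829 and 3342 FPKM. The FPKM summed over all genes was also higher in Pcgf5-/- samples. It was 373249 and 385700 in WT against 404053 and 398502 at day 0, and 363066 and 370432 against 386181 and 411496 at day 6. Of these totals the 77 genes gave 0.857% and 0.922% in WT against 0.960% and 1.06% at day 6. As parts of these totals the 60 genes on the other chromosomes did not stay apart at day 6. In Pcgf5-/- replicate 1 they gave 2829 of 386181, a smaller part than the 2773 of 370432 in WT replicate 2. Their separation at day 6 thus holds for the unscaled sums only.

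**Figure D1:**
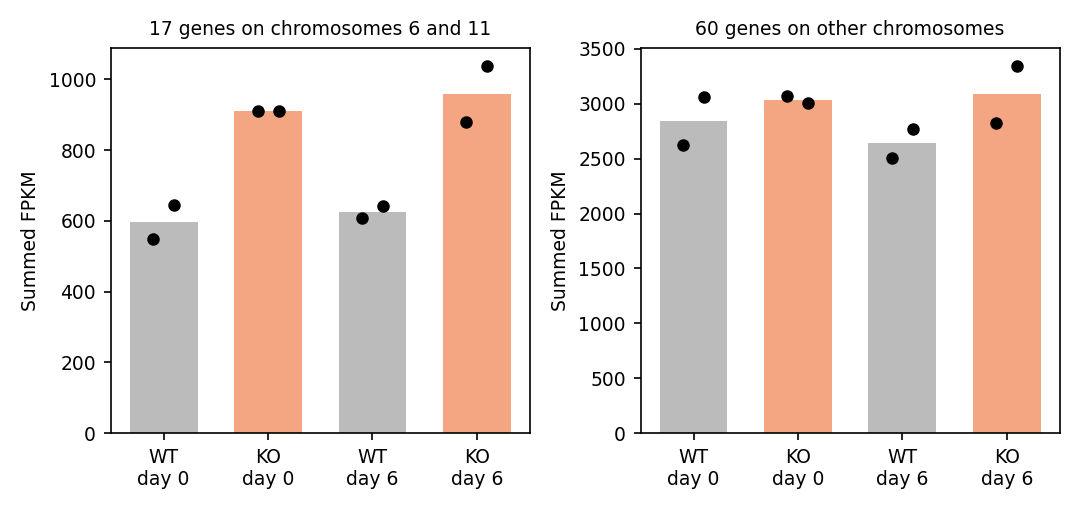
Summed FPKM of the mitochondrial ribosomal protein genes in each sample (points) with the mean of the 2 samples (bars), for the 17 genes on chromosomes 6 and 11 (left) and the 60 genes on other chromosomes (right). On the left every Pcgf5-/- sample, from 880.1 to 1037, lies above every WT sample, from 549 to 645; on the right the day 0 samples overlap.

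At day 0, the larger differences of the family lay on chromosomes 6 and 11, and the family median depended on the WT sample used. The median difference over the 77 genes was 0.16 in log2, with 60 higher and 17 lower, beside a median of 0.11 over all tested genes. This median rested on the WT samples, being 0.0394 without WT replicate 1 and 0.30 without WT replicate 2, and it was 0.0198 with each sample centred on its median gene. Without Pcgf5-/- replicate 2, the library with the highest feeder marker sum, it was 0.21. Limma called 1 member higher and 0 lower, where it called 0.288% of all tested genes higher and 0.0454% lower. At an unadjusted p under 0.05 the counts were 23 higher and 0 lower, against 14.1% and 3.26% of all tested genes. The samples of the genotypes did not overlap for 39 members in the higher direction and for 4 in the lower, against 34.6% and 13.3% of all tested genes.

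The called gene was Mrpl10 (chr11:96902900-96910527 in build mm9, the build of all positions that follow), which encodes the protein that anchors the L7/L12 stalk of the large subunit. It measured 33.5 and 34.6 FPKM in WT and 57.5 and 61.4 FPKM in Pcgf5-/- mESCs, so that the groups lay far apart (log2 0.78 ± 0.12 SE, limma adjusted p = 0.0475). This call was kept in 5 of 19 alternative settings, with adjusted p-values from 0.0378 to 0.224. Mrpl38 (chr11:115993131-116000182), a mitochondria-specific protein of the central protuberance, showed the widest difference of the family, 33.04 and 31.6 FPKM in WT against 61.3 and 67.2 FPKM in Pcgf5-/- cells, without passing the threshold (log2 0.97 ± 0.17 SE, limma adjusted p = 0.0614). The largest difference outside chromosomes 6 and 11 was that of the small subunit gene Mrps26 (chr2:130389493-130391130), at 17.3 and 20.3 FPKM in WT and 33.1 and 32.6 FPKM in Pcgf5-/- cells (log2 0.78 ± 0.15 SE, limma adjusted p = 0.0628). Among the lower values, Mrps31 stood at 30.8 and 38.3 FPKM in WT and 27.7 and 28.5 FPKM in Pcgf5-/- cells (log2 -0.28 ± 0.14 SE, limma adjusted p = 0.362). Mrpl21 (log2 -0.26) and Mrps14 (log2 -0.25) followed, each with samples that did not overlap and an adjusted p of 0.392 and 0.577 by limma.

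At day 6, the family stood higher in Pcgf5-/- cells in more of its genes. The median difference was 0.27 in log2, with 67 of the 77 genes higher and 10 lower, beside a median of 0.02 over all tested genes. Limma called 15 members higher and 0 lower, where it called 9.57% of all tested genes higher and 7.05% lower, and at an unadjusted p under 0.05 the counts were 31 and 0, against 18.3% and 14.3%. The samples did not overlap for 45 members in the higher direction and 0 in the lower, against 33.4% and 28.8% of all tested genes. Of the called genes, 3 lay on chromosome 6, 8 on chromosome 11 and 4 elsewhere. The calls of day 6 rested on all 4 samples of that day. Leaving out any of these keeps 1 sample in a group, and such fits called fewer members and fewer of all tested genes. The family median was 0.24 and 0.33 without WT replicates 1 and 2, and 0.36 and 0.17 without Pcgf5-/- replicates 1 and 2. Over all tested genes the median of those fits lay between 0.01 and 0.03.

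Proteins of the large subunit made up 10 of the called genes. Mrpl10, called at day 0 as well, measured 30.6 and 34.6 FPKM in WT and 52.6 and 54.1 FPKM in Pcgf5-/- cells (log2 0.70 ± 0.12 SE, limma adjusted p = 0.00995). Its partner Mrpl12 (chr11:120345983-120350068), the L7/L12 homologue, rose from 79.4 and 82.1 FPKM to 122 and 133 FPKM (log2 0.65 ± 0.14 SE, limma adjusted p = 0.0213). Mrpl45 (chr11:97177030-97191234), which sits at the exit of the nascent chain tunnel and ties the ribosome to the inner membrane, measured 31.5 and 29.6 FPKM in WT and 50.3 and 51.6 FPKM in Pcgf5-/- cells (log2 0.72 ± 0.11 SE, limma adjusted p = 0.0085). In each of these genes the lower Pcgf5-/- sample was well above the higher WT sample. Mrpl22 (chr11:57985156-57993082), whose protein lines that tunnel, gave 71.2 and 88.7 FPKM in WT and 115 and 131 FPKM in Pcgf5-/- cells (log2 0.62 ± 0.15 SE, limma adjusted p = 0.0271), and Mrpl24 (chr3:87723466-87727355), placed near the tunnel exit, gave 37.03 and 33.5 FPKM and 51.8 and 58.9 FPKM (log2 0.63 ± 0.17 SE, limma adjusted p = 0.0378). The locus of Mrpl24 overlaps that of Rrnad1 on the opposite strand, and the sources do not state whether the libraries kept strand, so that reads of the pair may not be separable.

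The remaining large subunit genes called at day 6 were Mrpl38, Mrpl40, Mrpl35, Mrpl51 and Mrpl55. Mrpl38 stood at 33.3 and 46.9 FPKM in WT and 63.3 and 74.8 FPKM in Pcgf5-/- cells (log2 0.78 ± 0.17 SE, limma adjusted p = 0.0212), and Mrpl40 (chr16:18872111-18876730), a further protein of the central protuberance, at 49.8 and 55.7 FPKM and 73.9 and 75.2 FPKM (log2 0.49 ± 0.11 SE, limma adjusted p = 0.0226). Mrpl51 (chr6:125142218-125144410), a mitochondria-specific protein, measured 32.4 and 29.2 FPKM in WT and 47.3 and 63.4 FPKM in Pcgf5-/- cells (log2 0.81 ± 0.18 SE, limma adjusted p = 0.0229). Mrpl35 (chr6:71762991-71773778), homologous to bacterial L35, was among the weaker genes, with 9.16 and 8.22 FPKM in WT and 15.4 and 16.3 FPKM in Pcgf5-/- cells (log2 0.80 ± 0.18 SE, limma adjusted p = 0.0211). All of these groups lay apart. The call of Mrpl55 (log2 0.61 ± 0.17 SE, limma adjusted p = 0.0478) was the least steady, being kept in 6 of 19 alternative settings.

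The small subunit contributed Mrps24, Mrps35, Mrps34, Mrps7 and Mrps5. Mrps24 (chr11:5603986-5607702), the homologue of bacterial S3, showed the largest difference of the family, 22.7 and 20.2 FPKM in WT against 34.4 and 47.5 FPKM in Pcgf5-/- cells (log2 0.89 ± 0.23 SE, limma adjusted p = 0.0352), although the Pcgf5-/- samples were far apart from each other. Mrps35 (chr6:146991292-147019424), a mitochondria-specific protein, measured 48.3 and 47.6 FPKM in WT and 70.1 and 83.6 FPKM in Pcgf5-/- cells (log2 0.67 ± 0.12 SE, limma adjusted p = 0.0126). Mrps34 (chr17:25032065-25033218), also mitochondria-specific and required for a stable small subunit, measured 31.3 and 34.8 FPKM and 49.7 and 54.7 FPKM (log2 0.64 ± 0.13 SE, limma adjusted p = 0.0155), and its Pcgf5-/- values were the highest of its 8 samples. Mrps7, the homologue of S7 in the head of the subunit, gave 42.3 and 43.1 FPKM and 58.6 and 69.9 FPKM (log2 0.57 ± 0.15 SE, limma adjusted p = 0.0396). Mrps5 (chr2:127413162-127429722), the homologue of S5, gave 63.1 and 69.8 FPKM and 89.4 and 99.6 FPKM (log2 0.50 ± 0.14 SE, limma adjusted p = 0.0485), and its call was kept in 7 of 20 alternative settings.

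**Figure D2:**
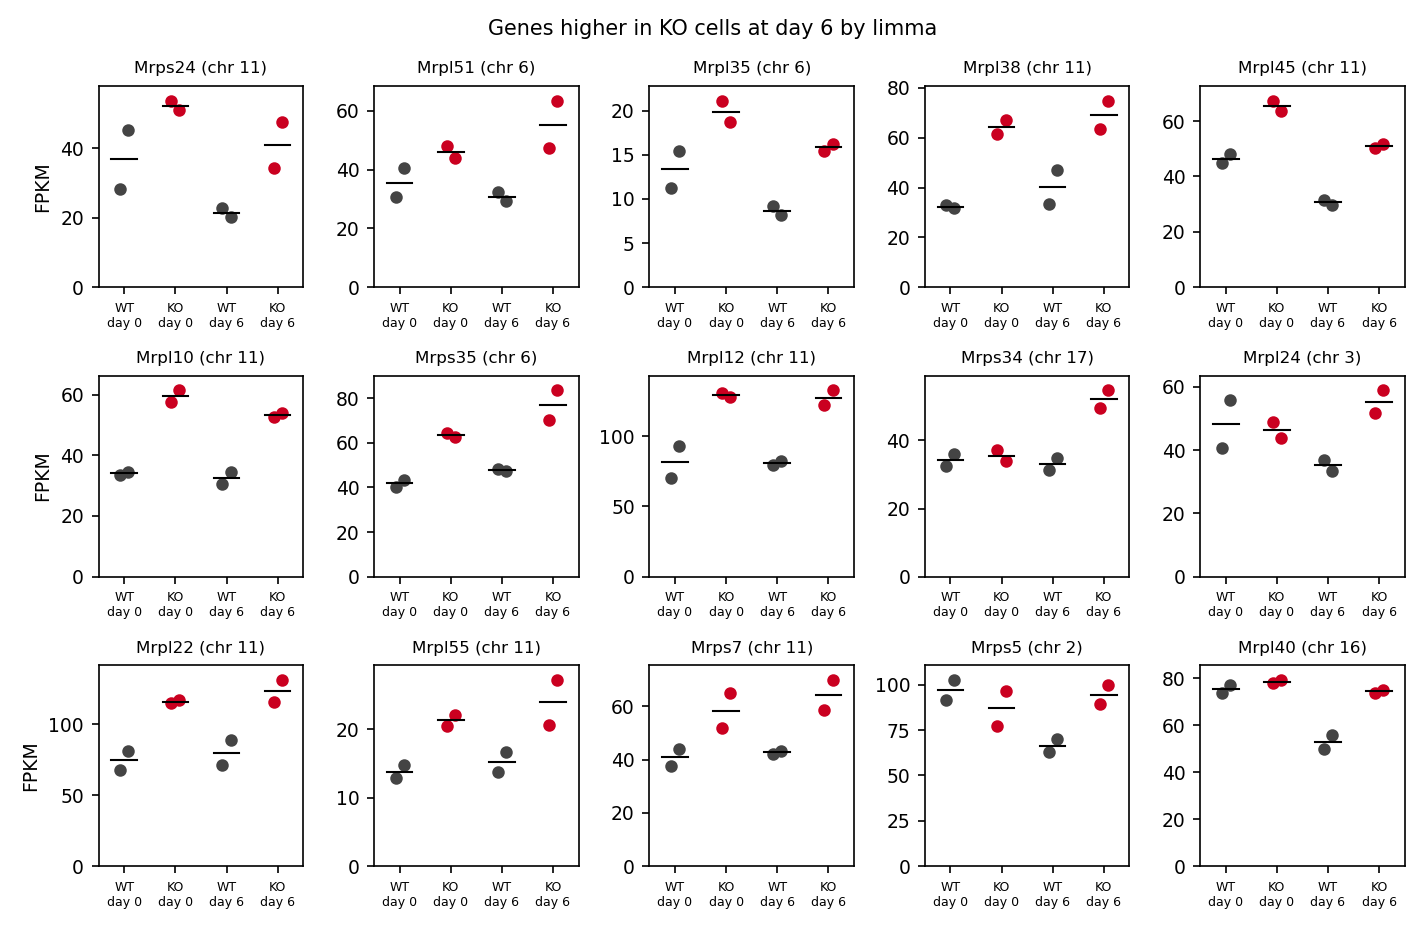
FPKM in each sample (points, grey for WT and red for KO) and the mean of the 2 samples (lines) for the 15 genes called higher in Pcgf5-/- cells at day 6, ordered by log2 difference. The genes of chromosomes 6 and 11 are also higher in both KO samples at day 0, whereas Mrps34, Mrpl24, Mrps5 and Mrpl40 differ by 0.06, -0.04, -0.17 and 0.06 in log2 on that day.

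The genotype difference of a member went with its chromosome. All 17 members on chromosomes 6 and 11 were higher in Pcgf5-/- cells on both days, and none of them had overlapping samples. Among all 1729 tested genes of these chromosomes, the samples lay apart in the higher direction for 72.7% at day 0 and 62.8% at day 6, and in the lower direction for 1.79% and 9.95%. The direction for the 17 members was the same with quantile normalization and with centring on the median gene. The median difference of these members was 0.57 in log2 at day 0 (range 0.29 to 0.97) and 0.62 at day 6 (0.33 to 0.89). Limma called 1 of the 17 at day 0 and 11 at day 6, against 1.39% and 25.3% of all tested genes on these chromosomes. Since no samples overlapped, each Pcgf5-/- sample had all 17 above each WT sample of its day. The medians of these single pairs lay between 0.42 and 0.75.

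Genes of these chromosomes outside the family were mostly higher in Pcgf5-/- cells as well. On chromosome 6 the median was 0.53 over 7 members and 0.41 over 636 other tested genes at day 0, and 0.48 and 0.37 at day 6. On chromosome 11 it was 0.64 over 10 members and 0.48 over 1076 other genes at day 0, and 0.64 and 0.37 at day 6. For the other genes of the remaining chromosomes, the medians ran from 0.04 to 0.12 in mESCs and from -0.06 to 0.03 in the differentiated samples. At day 0, 93.1% of the other genes on chromosome 6 and 93.7% of those on chromosome 11 were higher in Pcgf5-/- cells. How many copies of these chromosomes the cells carried was not tested.

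**Figure D3:**
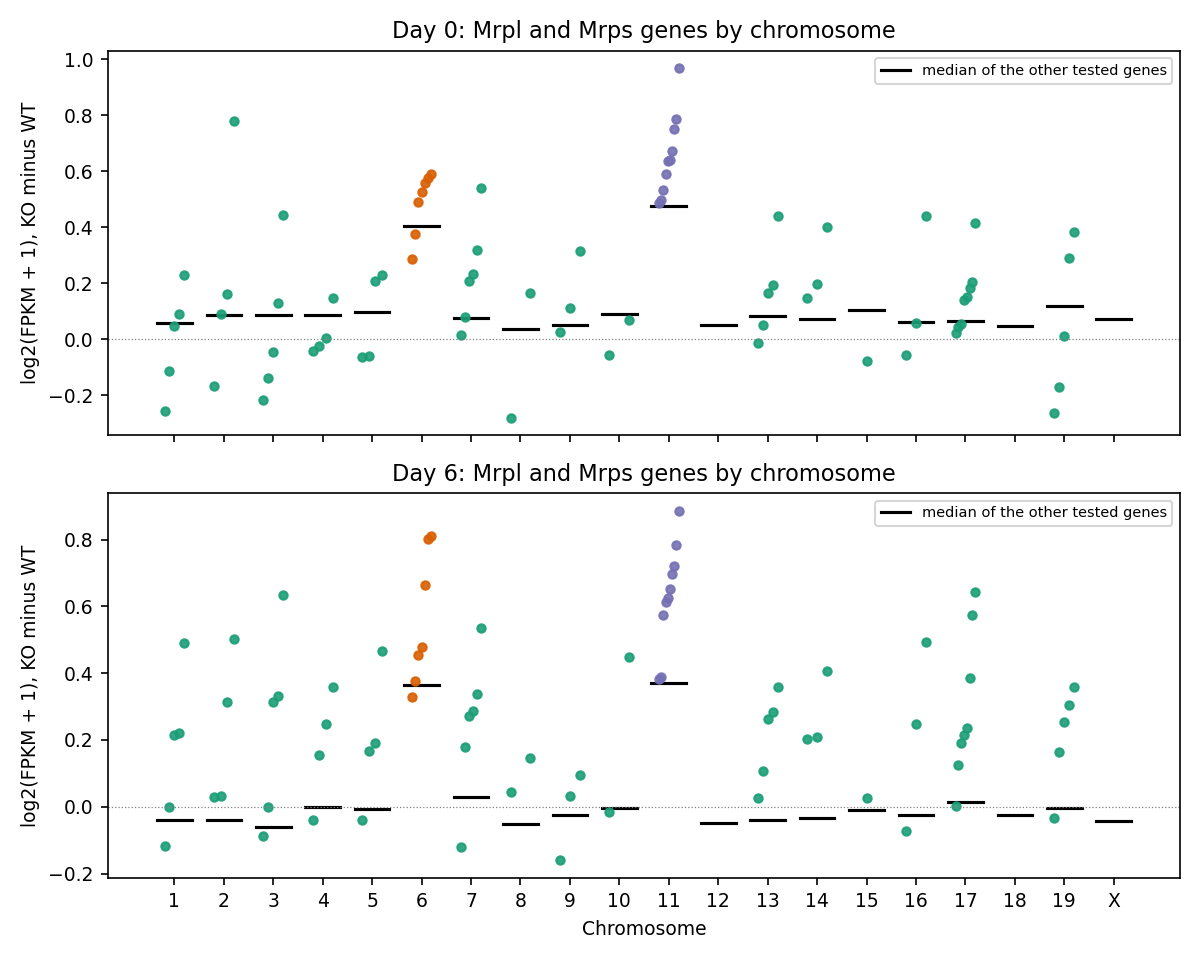
Difference between KO and WT in log2(FPKM + 1) for each mitochondrial ribosomal protein gene (points) by chromosome at day 0 (top) and day 6 (bottom), with the median of the other tested genes of that chromosome (black lines). Points and medians of chromosomes 6 (orange) and 11 (purple) lie above 0, with other-gene medians of 0.41 and 0.48 at day 0 and of 0.37 on both at day 6.

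On chromosome 6, the members besides Mrpl51, Mrpl35 and Mrps35 were Mrps33, Mrpl19, Mrpl53 and Mrps25, and none of these 4 passed the threshold. Mrpl53 measured 27.1 and 29.8 FPKM in WT against 34.6 and 46.2 FPKM in differentiated Pcgf5-/- cells (log2 0.48 ± 0.20 SE, limma adjusted p = 0.136). Mrpl19 measured 11.02 and 12.4 FPKM and 15.2 and 17.5 FPKM (log2 0.45 ± 0.15 SE, limma adjusted p = 0.0678), Mrps25 14.8 and 13.3 FPKM and 17.96 and 19.2 FPKM (log2 0.38 ± 0.14 SE, limma adjusted p = 0.106), and Mrps33 37.4 and 37.02 FPKM and 40.7 and 54.1 FPKM (log2 0.33 ± 0.19 SE, limma adjusted p = 0.267). On chromosome 11, only Mrps23 (log2 0.39 ± 0.13 SE, limma adjusted p = 0.0804) and Mrpl27 (log2 0.38 ± 0.15 SE, limma adjusted p = 0.122) of the 10 members stayed short of the threshold at day 6. At day 0 these genes stood at 42.8 and 37.2 FPKM in WT and 65.8 and 59.7 FPKM in Pcgf5-/- cells for Mrps23, and at 25.2 and 24.4 FPKM and 45.8 and 39.3 FPKM for Mrpl27, whose protein reaches the peptidyl transferase centre. Mrps25, Mrps23, Mrpl53 and Mrpl19 overlap the locus of another listed gene.

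Without chromosomes 6 and 11, the 60 other members had a median near that of the genome at day 0 and above it at day 6, while their share of calls at day 6 was near that of the genome. Their median was 0.09 in log2 at day 0, with 43 higher and 17 lower, beside 0.07 over the 11485 tested genes of the same chromosomes. The samples lay apart for 22 in the higher direction and for 4 in the lower, against 28.8% and 15.1% of those genes. With quantile normalization this median was -0.01 with 28 of 60 higher, and with each sample centred on its median gene it was -0.05 with 26 higher, so that the small day 0 shift had no stable direction. It also depended on the WT sample used, with medians of 0.24 and 0.17 against WT replicate 1 and of 0.00 for both Pcgf5-/- samples against WT replicate 2, where 30 of 60 were higher.

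At day 6 the median of these 60 genes was 0.21, with 50 higher and 10 lower, beside -0.02 over the other chromosomes' genes and 0.02 over those of them within the members' range of mean FPKM. The samples lay apart for 28 members in the higher direction and 0 in the lower, against 28.9% and 31.6% of the genes on these chromosomes. Limma called 4 higher (6.67%, Mrps34, Mrpl24, Mrps5 and Mrpl40) and 0 lower, against 7.21% of these genes called higher and 7.82% called lower. Refitted without the genes of chromosomes 6 and 11 it called 3, with Mrps5 lost. The direction held with quantile normalization (median 0.14) and with centring on the median gene (0.25). Single pairs of samples gave medians from 0.04, for replicate 1 of Pcgf5-/- against replicate 2 of WT, to 0.39, for replicate 2 of Pcgf5-/- against replicate 1 of WT. The size of the shift thus varied with the Pcgf5-/- sample that stands high for the whole family.

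Medians lay close together for the subunits and for the origins of the proteins. At day 6 the median was 0.25 over the 48 Mrpl genes and 0.31 over the 29 Mrps genes, and outside chromosomes 6 and 11 it was 0.21 in both. Members with a bacterial counterpart had a median of 0.23 (48 genes) and mitochondria-specific ones of 0.29 (28 genes). The Mrpl genes gave between 63.1% and 64.5% of the summed FPKM in every sample. The 3 Mrps18 paralogs, of which Mrps18a belongs to the large subunit, are described with the days. Mrps30, whose protein also sits in the large subunit despite its name, measured 43.2 and 35.7 FPKM in WT and 57.5 and 49.995 FPKM in Pcgf5-/- mESCs (log2 0.44 ± 0.14 SE, limma adjusted p = 0.151). Mrps36, since reassigned to the 2-oxoglutarate dehydrogenase complex, measured 42.1 and 55.9 FPKM and 52.3 and 65.2 FPKM at day 6 (log2 0.26 ± 0.17 SE, limma adjusted p = 0.336).

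Over the 6 days of differentiation in WT cells, members moved in both directions, with a smaller share called higher than among all tested genes. Limma called 7 higher and 14 lower at day 6, where it called 34.2% of all tested genes higher and 16.2% lower. The median change was -0.06 in log2, beside 0.22 over all tested genes. Over the 6965 tested genes within the members' range of mean FPKM it was 0.10, with 1965 called higher and 1246 lower. The samples of the days lay apart for 19 members in the higher direction and 27 in the lower (49.5% and 28.1% of all genes). Centring each sample on its median gene moved the median of all genes from 0.22 to -0.15. Then 2 members were called higher and 43 lower, with a family median of -0.43, while 52.4% of all tested genes were called in either direction. Quantile normalization gave 7 higher and 16 lower, with 46.9% of all tested genes called.

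Among the rising genes, Mrpl23 (chr7:149719022-149726647), homologous to L23 at the tunnel exit, changed most, from 37.3 and 39.4 FPKM at day 0 to 73.6 and 90.96 FPKM at day 6 in WT cells (log2 1.07 ± 0.16 SE, limma adjusted p = 0.00094). Mrpl27 went from 25.2 and 24.4 FPKM to 46.2 and 43.05 FPKM (log2 0.82 ± 0.15 SE, limma adjusted p = 0.00263), and these calls were kept in all 20 and all 19 alternative settings respectively. Mrpl41 (chr2:24827990-24830618), a mitochondria-specific protein whose locus overlaps that of Dph7, went from 6.02 and 8.76 FPKM to 11.7 and 13.7 FPKM (log2 0.72 ± 0.20 SE, limma adjusted p = 0.0184), and Mrpl3, the L3 homologue, from 36.4 and 35.4 FPKM to 48.96 and 57.3 FPKM (log2 0.55 ± 0.13 SE, limma adjusted p = 0.00796). Mrps23 (log2 0.51), Mrpl33 (log2 0.39) and Mrps18a (log2 0.32) made up the rest. The last of these, at 43.9 and 44.7 FPKM and 54.6 and 56.4 FPKM, lost its call and its sign with centring on the median gene, while Mrpl3, Mrpl33, Mrpl41 and Mrps23 kept their sign and lost their call.

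Of the 48 members with a bacterial counterpart 10 fell and 5 rose, and of the 28 mitochondria-specific members 4 fell and 2 rose. Mrps16 (chr14:21210453-21212777), the S16 homologue, fell from 48.96 and 62.1 FPKM to 29.6 and 31.6 FPKM (log2 -0.83 ± 0.23 SE, limma adjusted p = 0.0162), and Mrpl15 (chr1:4763279-4775807), the L15 homologue, from 27.5 and 35.97 FPKM to 18.3 and 17.6 FPKM (log2 -0.78 ± 0.15 SE, limma adjusted p = 0.00364). Mrps12, homologous to S12 at the decoding centre, went from 34.8 and 34.5 FPKM to 19.7 and 23.5 FPKM (log2 -0.66 ± 0.17 SE, limma adjusted p = 0.0129). Mrpl1, which forms the mobile L1 stalk, went from 18.01 and 19.9 FPKM to 12.7 and 11.1 FPKM (log2 -0.63 ± 0.14 SE, limma adjusted p = 0.00585). The most abundant member, Mrpl42, went from 169.9 and 193 FPKM to 113 and 127 FPKM (log2 -0.59 ± 0.13 SE, limma adjusted p = 0.0067). Mrps18b, a paralog placed in the small subunit, went from 59.1 and 90.97 FPKM to 45.5 and 44.9 FPKM (log2 -0.69 ± 0.19 SE, limma adjusted p = 0.0186), with the day 0 samples far apart. Mrps18c, the third paralog, did not pass the threshold (log2 0.09 ± 0.20 SE, limma adjusted p = 0.736).

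Further falling genes were Mrps24 (log2 -0.72 ± 0.23 SE, limma adjusted p = 0.0306), Mrpl45 (log2 -0.59 ± 0.11 SE, limma adjusted p = 0.00315), Mrpl36 (log2 -0.55 ± 0.19 SE, limma adjusted p = 0.0419) and Mrpl35 (log2 -0.55 ± 0.18 SE, limma adjusted p = 0.0293). The falls of Mrps5 (log2 -0.54 ± 0.14 SE, limma adjusted p = 0.0141) and Mrpl40 (log2 -0.51 ± 0.11 SE, limma adjusted p = 0.0057) were followed by those of Mrpl18 (log2 -0.41) and Mrpl46 (log2 -0.41). Which members were called depended on single samples, in fits that leave 1 sample in a group and also called fewer of all tested genes. The family median was -0.19 without WT replicate 1 of day 0 and 0.02 without replicate 2, beside 0.21 and 0.23 over all tested genes. It was -0.004 without WT replicate 1 of day 6 and -0.12 without replicate 2, beside 0.21 in both fits.

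In Pcgf5-/- cells over the same days, limma called 2 members higher and 3 lower, where it called 21.9% of all tested genes higher and 10.4% lower. The median change was 0.03 in log2, beside 0.13 over all tested genes. Over the 6965 tested genes within the members' range of mean FPKM it was 0.06, with 1180 called higher and 732 lower. The samples lay apart for 20 members in the higher direction and 23 in the lower (43.3% and 25.1% of all genes). Centring on the median gene gave 1 higher and 11 lower, and quantile normalization 4 higher and 2 lower. Mrpl23 was called here as well, from 60.8 and 52.004 FPKM at day 0 to 92.4 and 116 FPKM at day 6 (log2 0.87 ± 0.16 SE, limma adjusted p = 0.0054), in all 20 alternative settings. Mrps34 went from 37.1 and 34.1 FPKM to 49.7 and 54.7 FPKM (log2 0.54 ± 0.13 SE, limma adjusted p = 0.0151). The falling genes were Mrps12, from 39.8 and 42.1 FPKM to 20.7 and 28.9 FPKM (log2 -0.72 ± 0.17 SE, limma adjusted p = 0.0155), Mrpl36, from 41.7 and 42.9 FPKM to 23.2 and 30.8 FPKM (log2 -0.64 ± 0.19 SE, limma adjusted p = 0.036), and Mrpl45 (log2 -0.35 ± 0.11 SE, limma adjusted p = 0.0442), whose call was kept in 8 of 19 alternative settings. Fits that left out 1 Pcgf5-/- sample called different members, and fewer of all tested genes. The family median was 0.04 without Pcgf5-/- replicate 1 of day 0 and -0.006 without replicate 2, beside 0.12 and 0.15 over all tested genes. It was 0.15 without Pcgf5-/- replicate 1 of day 6 and -0.08 without replicate 2, beside 0.15 and 0.12. Mrpl41 (log2 0.59 ± 0.20 SE, limma adjusted p = 0.0584), Mrps15 (log2 0.54 ± 0.18 SE, limma adjusted p = 0.0525) and Mrps16 (log2 -0.57 ± 0.23 SE, limma adjusted p = 0.0877) were among the widest changes that stayed short of the threshold.

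**Figure D4:**
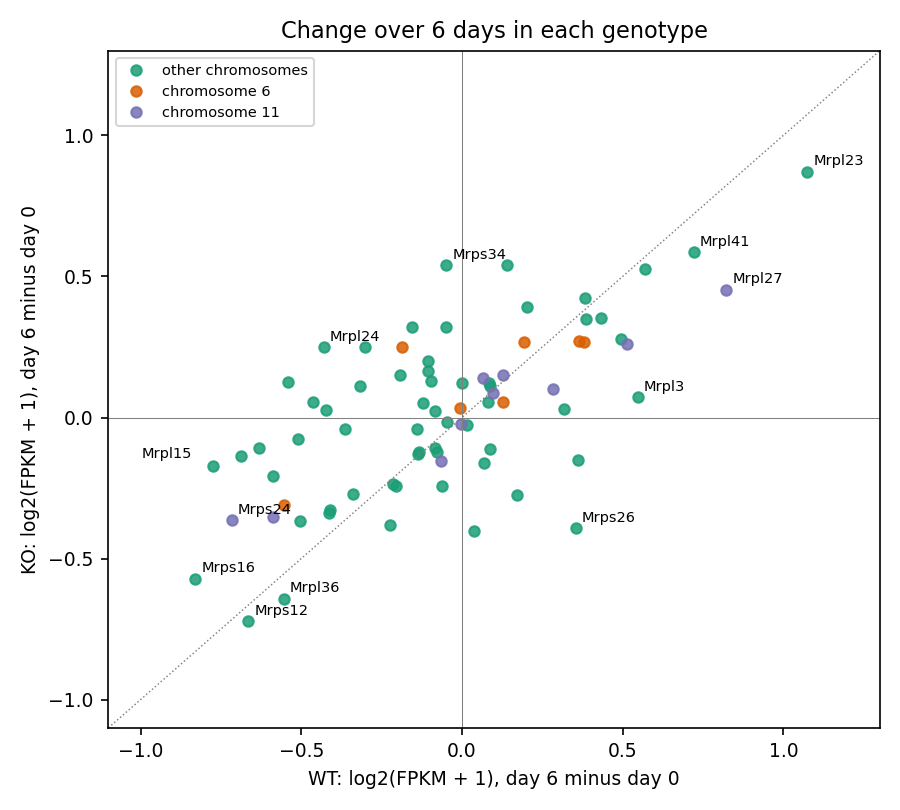
Change from day 0 to day 6 in log2(FPKM + 1) for each of the 77 genes in WT (horizontal axis) and in KO cells (vertical axis), coloured by chromosome, with selected genes named and the line of equal change dotted. Mrpl23 lies at the upper right with changes of 1.07 and 0.87, Mrps16 and Mrps12 at the lower left, and Mrps26 at the lower right with changes of opposite sign.

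The difference between these changes, the interaction of genotype and day, passed the threshold for 0 of the 77 genes by limma, where 1.34% of all tested genes were called in the higher and 1.75% in the lower direction. At an unadjusted p under 0.05, 8 members (10.4%) had a more positive change in Pcgf5-/- cells and 2 (2.6%) a more negative one, against 8.63% and 14.6% of all tested genes, so that the share in the positive direction was near that of the genome. The median interaction was 0.04 in log2 over the members, -0.10 over all tested genes and -0.05 over those within the members' range of mean FPKM. The genes called between the genotypes at day 6 outside chromosomes 6 and 11 can be read beside these values, bearing in mind that the comparisons share the WT samples of day 6. Mrps5 measured 91.8 and 103 FPKM in WT at day 0, 63.1 and 69.8 FPKM in WT at day 6, 77.2 and 96.8 FPKM in Pcgf5-/- mESCs and 89.4 and 99.6 FPKM after their differentiation (interaction log2 0.67 ± 0.20 SE, limma adjusted p = 0.107). Mrpl40 measured 73.8 and 77.1, 49.8 and 55.7, 77.9 and 79.3 and 73.9 and 75.2 FPKM in the same order (interaction log2 0.43 ± 0.16 SE, limma adjusted p = 0.154), and Mrpl24 40.8 and 55.97, 37.03 and 33.5, 49.04 and 43.7 and 51.8 and 58.9 FPKM (interaction log2 0.68 ± 0.24 SE, limma adjusted p = 0.144). In Mrps34 the WT samples stood at 32.4 and 36.02 FPKM at day 0 and 31.3 and 34.8 FPKM at day 6, and the Pcgf5-/- samples were the high ones of day 6 (interaction log2 0.59 ± 0.18 SE, limma adjusted p = 0.108). In Mrps5, Mrpl40 and Mrpl24 the low samples were those of WT at day 6, the ones with the lowest pluripotency and highest neural progenitor marker sums, whose part in the difference was not tested.

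Other genes of mitochondrial translation, and of mitochondrial DNA transcription and maintenance, gave a similar account by chromosome. Of 60 listed by function, 56 were tested. Their median difference between the genotypes was 0.22 in log2 at day 0 and 0.23 at day 6, with 9 genes on chromosomes 6 and 11 at 0.61 and 0.58 and 47 elsewhere at 0.17 and 0.19. Limma called 0 of them at day 0, where it called 0.288% of all tested genes higher and 0.0454% lower. At an unadjusted p under 0.05 the day 0 counts were 11 higher (19.6%) and 1 lower (1.79%), against 14.1% and 3.26% of all tested genes. At day 6 limma called 4 higher and 1 lower. These were 7.14% and 1.79% of the list, below the 9.57% and 7.05% of all tested genes. The higher ones were Rnmtl1 (log2 0.68 ± 0.17 SE, limma adjusted p = 0.0297), which methylates mitochondrial ribosomal RNA, Ptcd3 (log2 0.66 ± 0.16 SE, limma adjusted p = 0.0277), a small subunit protein outside the naming scheme, the threonyl-tRNA synthetase Tars2 (log2 0.58 ± 0.15 SE, limma adjusted p = 0.0382) and the mitochondrial DNA-binding protein Ssbp1 (log2 0.58 ± 0.12 SE, limma adjusted p = 0.0192). Tars2 alone of these lies outside chromosomes 6 and 11. The lower one was Guf1, an elongation factor, at 14.3 and 13.03 FPKM in WT and 7.70 and 8.96 FPKM in Pcgf5-/- cells (log2 -0.66 ± 0.16 SE, limma adjusted p = 0.031).

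Over the days in WT cells, 11 of the 56 genes (19.6%) were called higher and 6 (10.7%) lower, against 34.2% and 16.2% of all tested genes. In Pcgf5-/- cells the counts were 6 (10.7%) and 4 (7.14%), against 21.9% and 10.4%. In WT cells Guf1 rose from 6.72 and 5.97 FPKM to 14.3 and 13.03 FPKM (log2 1.00 ± 0.16 SE, limma adjusted p = 0.0014), followed by the proline-tRNA synthetase Pars2 (log2 0.87 ± 0.26 SE, limma adjusted p = 0.0216) and Ict1, a large subunit protein with peptidyl-tRNA hydrolase activity (log2 0.87 ± 0.21 SE, limma adjusted p = 0.0101). Gadd45gip1, a further large subunit protein, fell from 22.3 and 23.9 FPKM to 12.1 and 11.5 FPKM (log2 -0.91 ± 0.14 SE, limma adjusted p = 0.00115) and was also called lower in Pcgf5-/- cells (log2 -0.53 ± 0.14 SE, limma adjusted p = 0.0231). The next called falls by size in WT cells were those of the alanine- and phenylalanine-tRNA synthetases Aars2 (log2 -0.59 ± 0.18 SE, limma adjusted p = 0.0242) and Fars2 (log2 -0.53 ± 0.18 SE, limma adjusted p = 0.0432). In Pcgf5-/- cells the widest rises among the called genes were those of Pars2 (log2 0.97 ± 0.26 SE, limma adjusted p = 0.0223), the arginine-tRNA synthetase Rars2 (log2 0.79 ± 0.12 SE, limma adjusted p = 0.00277) and the mitochondrial DNA helicase Peo1 (log2 0.78 ± 0.22 SE, limma adjusted p = 0.0289), and the widest called falls those of the leucine-tRNA synthetase Lars2 (log2 -0.91 ± 0.30 SE, limma adjusted p = 0.0489) and the GTPase Noa1 (log2 -0.72 ± 0.15 SE, limma adjusted p = 0.0086). By list, the median difference between the genotypes at day 6 was 0.34 over 6 mitoribosome subunits with other symbols (6 higher, 2 of them on chromosomes 6 and 11), 0.24 over 13 translation factors (11 higher) and 0.12 over 17 aminoacyl-tRNA synthetases (12 higher). It was 0.25 over 13 assembly factors (10 higher) and 0.19 over 7 genes of mitochondrial DNA transcription and maintenance (7 higher). Outside chromosomes 6 and 11 the list medians were, in turn, 0.34, 0.22, 0.12, 0.13 and 0.12 (4, 11, 17, 10 and 5 genes).

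Members often shared their start region with a gene on the opposite strand. In the GENCODE vM1 annotation of the same build, 16 of 76 members found there (21.1%) had a protein-coding gene that starts within 1000 bases on the other strand and points away, compared with 10.4% of 11809 other tested genes. Mrps34 begins 28 bases from Eme2, which repairs DNA, Mrpl40 269 bases from the histone chaperone gene Hira, Mrps5 127 bases from Zfp661, and Mrpl10 152 bases from Lrrc46. At day 6 the partners differed by -0.05, -0.14, -0.19 and -0.20 in log2 in these pairs, with limma adjusted p-values of 0.886, 0.61, 0.675 and 0.712, beside differences of 0.64, 0.49, 0.50 and 0.70 for the members. Ncapd2, the partner of Mrpl51 on chromosome 6, differed by 0.35 (limma adjusted p = 0.0655).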

How the data were processed

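The deposited FPKM values were made by the authors, who trimmed and filtered paired-end reads, removed identical duplicates, and used TopHat2 (2.0.4) for alignment to mm9 and Cufflinks (2.1.1) for quantification, the versions being those of the submitters' processing notes. Removing duplicates can lower abundant transcripts. The annotation is not given in the sources used here. FPKM values lay above the upper confidence bound that Cufflinks itself gives for 35 members in every sample, but by a nearly constant factor per gene, and the midpoint of the bounds was added as an alternative after the data had been seen.

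Genes whose mean FPKM exceeded 1 in any condition were analysed as log2(FPKM + 1) with limma 3.58.1 in R 4.3.3, in 1 fit of the 4 condition means with a variance trend and no block, and Benjamini-Hochberg adjusted p under 0.05. The fit was tested on simulated data. Tables and plots were made with Python 3.11.15, pandas 2.3.3, numpy 2.4.6 and matplotlib 3.10.9. Depth is unknown beyond the relative values given, and the half-width of the Cufflinks bounds had a median near 10% in the members. The members and gene lists were chosen with earlier results of these data known. Named genes were the called members (up to 10 per direction and comparison), the 5 highest and lowest, those on chromosomes 6 and 11, the Mrps18 paralogs, Mrps30 and Mrps36, the 3 widest non-overlapping changes, the widest replicate gap, and the called list genes. Mrps5, Mrpl40, Mrpl18, Mrpl46, Mrpl21, Mrpl47, Mrpl49, Mrpl32, Mrpl39, Mrpl9 and the divergent pairs were named after their values had been seen. Groups and replicate numbers came from the titles. Alternatives were other pseudocounts, minimums, scalings, variance models, sample sets and blocks, the removal of chromosomes 6 and 11, and leaving out each sample.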

Additional observations from a re-analysis of the deposited data

Results flagged for a closer look

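Of the members, 5 moved in opposite directions in the groups compared, with samples that did not overlap in either group. How many of all tested genes do so was not counted, so this number is not a result about the family. From day 0 to day 6, Mrpl24 was lower at day 6 in both WT samples and higher in both Pcgf5-/- samples, a difference of 0.68 in log2 (log2 0.68 ± 0.24 SE, limma adjusted p = 0.144), Mrpl47 did so with 0.551 (log2 0.55 ± 0.24 SE, limma adjusted p = 0.213) and Mrpl21 with 0.43 (log2 0.43 ± 0.20 SE, limma adjusted p = 0.252). Mrps26 went the other way, from 17.3 and 20.3 to 24.3 and 24.2 FPKM in WT and from 33.1 and 32.6 to 22.1 and 27.8 FPKM in Pcgf5-/- cells, a difference of -0.747 (log2 -0.75 ± 0.21 SE, limma adjusted p = 0.0903). For Mrpl49 the genotypes were apart in opposite directions on the 2 days, with 40.2 and 43.8 FPKM in WT against 37.4 and 36.8 FPKM in Pcgf5-/- mESCs, and 38.2 and 36.9 against 47.1 and 46.1 FPKM after 6 days, a difference of 0.476 (log2 0.48 ± 0.16 SE, limma adjusted p = 0.128). The p-values are those of the interaction of genotype and day, and none of the 5 passed the threshold. Mrpl21, Mrpl24 and Mrpl49 overlap the locus of another listed gene.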

How the results depend on the processing

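Counts of called members are given first. At day 0 the single call became 2 with an FPKM minimum of 5, 3 with a replicate block per day, and 0 with no minimum, quantile normalization, median centring, no variance trend, only the groups compared, a replicate block over all samples, without chromosomes 6 and 11, and in each fit that left out a sample. At day 6 the 15 calls became 9 with no FPKM minimum, 3 without chromosomes 6 and 11 and 24 with the block per day, and ranged from 1 to 16 when a sample was left out. For the days in WT cells the 21 calls became 45 with median centring and ranged from 12 to 20 without a sample, and for the days in Pcgf5-/- cells the 5 calls became 12 with median centring, 3 with no trend, 13 with the replicate block and 16 with the block per day, and ranged from 2 to 5. The interaction gave 1 call (Mrps5) with the block per day and 0 in every fit without a sample. Median differences moved by more than the spread between replicates with median centring, to 0.0198 at day 0, -0.43 for the days in WT, -0.15 for the days in Pcgf5-/- cells and 0.22 for the interaction. When a sample was left out they ranged from 0.0394 to 0.30 at day 0, from 0.17 to 0.36 at day 6, from -0.19 to 0.0250 for the days in WT, from -0.0818 to 0.15 for the days in Pcgf5-/- cells and from -0.0787 to 0.18 for the interaction. Median centring turned Mrps18a over the days in WT to -0.0455 (limma adjusted p = 0.774). The cause of these shifts was not tested, except that fewer samples or genes enter some fits. The replicate numbers were not taken as pairs, since no label ties them and the deviations of same-numbered samples correlated at 0.102 between the genotypes of day 0, 0.388 at day 6 and -0.08 to -0.02 across days. Of the 42 calls of single members, each under 19 or 20 alternatives, 632 values kept direction and side of the threshold, 189 lost the threshold and 1 reversed. With 2 samples a condition, the number of samples limits the precision of every value, and the median of the members varied between replicates with an SD of 0.11 in log2, against which the day 0 median of 0.16 can be read.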
